A study of Mus musculus with 8 samples.

Results

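F-box proteins are the exchangeable part of SCF ubiquitin ligases, in which a cullin scaffold (CUL1), a RING protein (RBX1) and the adaptor SKP1 hold the F-box protein that picks the substrate for ubiquitination and, as a rule, destruction by the proteasome. They are sorted by what follows the F-box: WD repeats in the Fbxw genes, leucine-rich repeats in the Fbxl genes and other domains in the Fbxo genes. In eggs and early embryos F-box proteins are known for the control of meiotic and mitotic exit, and the mouse carries a tandem group of Fbxw paralogues known from oocyte transcripts. The members described here are all probe sets whose single gene symbol begins with Fbxo, Fbxw or Fbxl, 115 of 45037 probe sets that are not controls. They stand for 67 of 18193 genes with such a probe set: 32 Fbxo, 18 Fbxw and 17 Fbxl symbols. One of them, Fbxl12os, is annotated as a transcribed pseudogene on the opposite strand of Fbxl12 and counts as a member by its symbol alone.

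Gene expression was measured in Brg1 mutant and wild type mouse embryos at the 2-cell stage, when transcription from the embryo's own genome becomes prominent. Total RNA of 20 pooled embryos made 1 sample, and 4 mutant and 4 wild type samples were each read on 1 Affymetrix array as MAS5 signals. The series title concerns maternal BRG1, the chromatin remodelling ATPase encoded by Smarca4, and activation of the zygotic genome. The mutant allele, the way it was introduced, the strain and the mothers' age are not stated in the labels, and no deletion or treatment shared by both groups is named. With pooled whole embryos, fewer molecules per embryo and fewer embryos with the transcript cannot be told apart. The samples are given as biological replicates with no animal or collection named, so p-values describe only how these samples varied.

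Smarca4 itself read 388, 201, 273 and 291 on its brighter probe set in mutants and 796, 632, 612 and 661 in wild type samples, all mutants below all wild type samples (log2 change -1.26, limma adjusted p = 0.0211). Its other probe set read 451, 146, 254 and 258 in mutants and 303, 194, 261 and 255 in wild type samples and overlapped (log2 change 0.037, limma adjusted p = 0.963), and the labels do not say which part of the gene the mutation alters. The 8 arrays had median signals of 36.3 to 47.6, and precision is limited by how few arrays there are. Oocyte and 2-cell transcripts stood above background, a bound set per array from Bacillus control probe sets: 11 of 12 such markers did so on every array of each group, and Mos did not. The mutant arrays fell into pairs. Over 22518 tested probe sets, mutant replicates 3 and 4 correlated with wild type arrays at 0.747 to 0.758, mutant replicates 1 and 2 at 0.828 to 0.890, and wild type arrays with one another at 0.916 to 0.969. Signal summed over 13 granulosa and cumulus markers was 1252 to 1999 in mutant replicates 1 and 2, 13758 to 16026 in mutant replicates 3 and 4, and 1812 to 2613 in wild type samples. The sum in replicates 3 and 4 was carried by Hsd3b1, Inha and Inhba, with means there of 7862, 2492 and 2449, against 14.7, 86.2 and 6.22 in wild type samples. Amhr2 (1405, against 1629 in wild type), Cyp11a1 (34.8, against 44.5) and Ptx3 (3.8, against 11.2) were not higher there, and Has2 was level (21.9, against 22.0). None of the 13 was at 0, and those above the background bound on all arrays concerned numbered 4 in mutant replicates 1 and 2, 11 in mutant replicates 3 and 4, and 5 in wild type samples. The bound itself was 27.2 to 37.7 in mutant replicates 1 and 2, 14.7 to 16.1 in replicates 3 and 4 and 16.4 to 31.0 in wild type samples, so these counts differ in part through the bound. Summed signal of 6 oviduct markers was 537 to 737, 1212 to 1287 and 470 to 719 in these groups. Krt8 (587, against 92.0 in wild type) and Ovgp1 (333, against 147) were higher in replicates 3 and 4, and Foxj1 (15.1, against 29.7) and Pax8 (37.3, against 52.9) were not. For 6 sperm markers the sums were 188 to 223, 88.4 to 107 and 154 to 180. For 6 blood and leukocyte markers they were 260 to 268, 345 to 364 and 220 to 322. The ratio of 3 prime to 5 prime actin signal was 12.9 to 15.05 in mutant replicates 1 and 2, 4.88 to 7.04 in mutant replicates 3 and 4 and 16.3 to 21.1 in wild type samples. The ratio of 3 prime to 5 prime Gapdh signal was 6.63 to 7.33 in mutants and 8.58 to 10.1 in wild type samples. Mean signal of the Bio and Cre control probe sets, which are not those of the bound, was 3.37 to 4.81 times the wild type mean in mutant replicates 1 and 2. It was 0.713 to 1.24 times that mean in mutant replicates 3 and 4. The part of these differences in the results below was not tested. The main results are therefore also given for mutant replicates 1 and 2 and for mutant replicates 3 and 4 apart, and those comparisons share the 4 wild type samples.

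Signal was sufficient to test 55 of the 67 F-box genes, the other 12 lying among the dimmer probe sets. Fbxo10, Fbxw13 and Fbxw24 rose in Brg1 mutant embryos, 0 fell, and 52 did not pass the test (limma with Benjamini-Hochberg adjustment over all 22518 probe sets tested, threshold 0.05). At an unadjusted limma p under 0.05, 7 of the 55 lay higher and 7 lower, where 1480 and 1745 of 11934 tested genes did. The 3 rises are 5.45% of the tested members, where 3.01% of 11934 tested genes were called higher and 6.56% of probe sets in either direction, and no member was called lower where 4.03% of all tested genes were. Estimated changes ran from -1.78 for Fbxo6 to 1.57 for Fbxo10 on the log2 scale, 30 above 0 and 25 below. Their median was 0.04, against -0.05 over all tested genes. Every mutant sample lay above every wild type sample for 8 tested members (14.5%, where 8.10% of tested genes did so), and below every wild type sample for 4 (7.27%, where 10.6% did so). The 8 are the 3 called genes with Fbxw18, Fbxw27, Fbxw7, Fbxo9 and Fbxo45, and the 4 are Fbxo6, Fbxo33, Fbxl12 and Fbxo11.

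**Figure D1:**
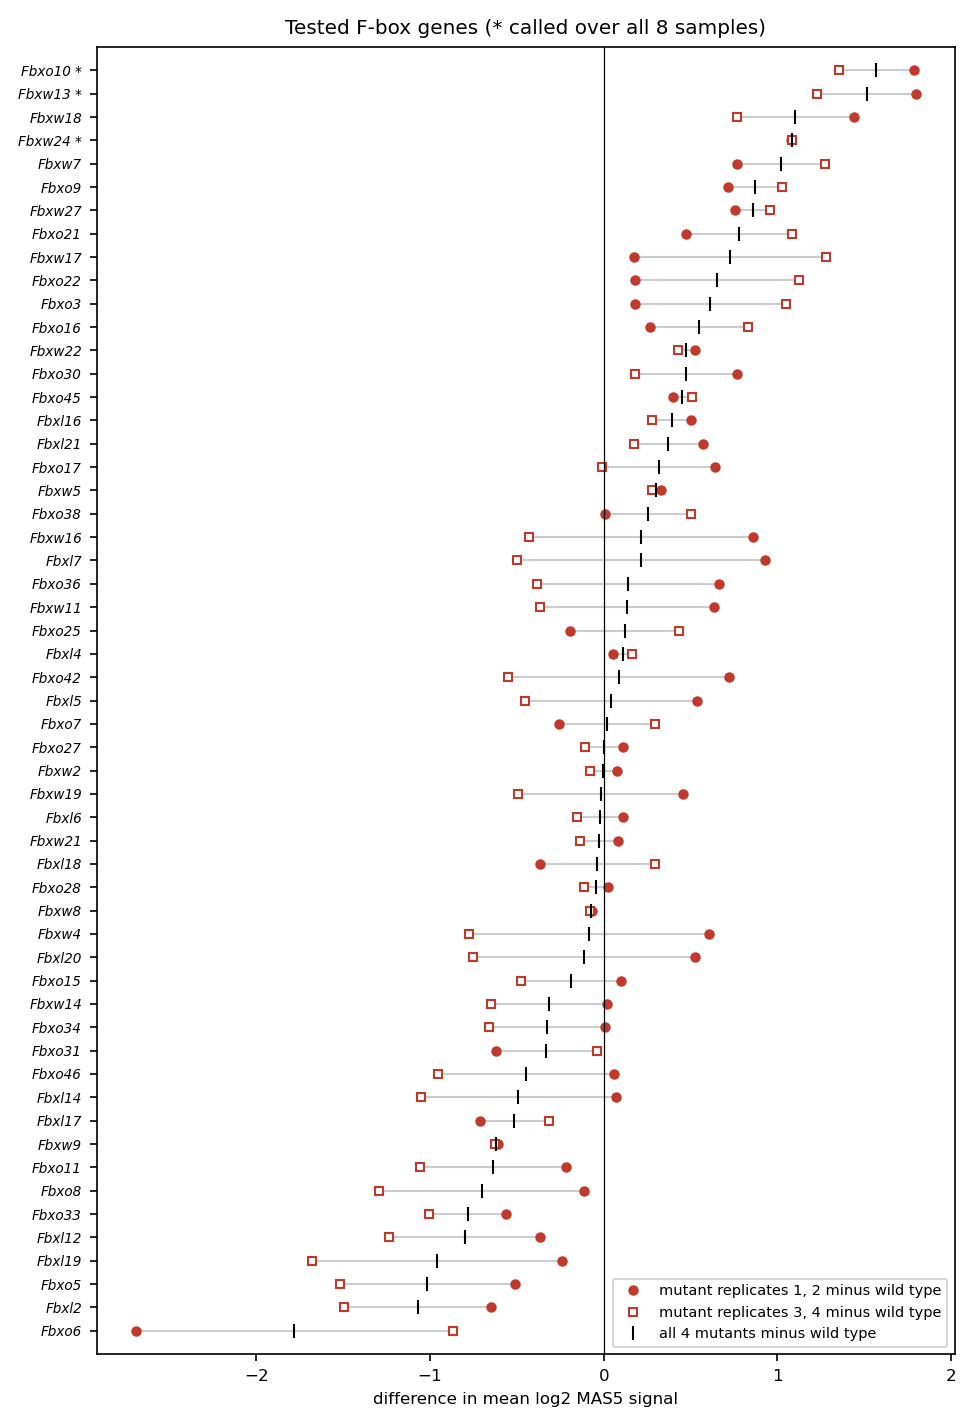
Difference in mean log2 MAS5 signal, mutant minus wild type, for the 55 tested F-box genes in order of the difference over all 8 samples (vertical ticks), with mutant replicates 1 and 2 (filled circles) and mutant replicates 3 and 4 (open squares) set apart against the same 4 wild type samples. An asterisk marks the 3 called genes, Fbxo10, Fbxw13 and Fbxw24, and the 2 mutant pairs lie on opposite sides of 0 for 23 genes.

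Fbxo10, whose human protein promotes degradation of the apoptosis inhibitor BCL2, had signals of 213, 234, 221 and 124 in mutant replicates 1 to 4, against 44.1, 119, 69.4 and 48.3 in wild type replicates 1 to 4. Mutant replicate 4 was the lowest of the mutants and stood just above wild type replicate 2. The mean was 198 ± 50.2 in mutants and 70.2 ± 34.4 in wild type samples (SD, n = 4 each), a 2.97-fold rise (log2 change 1.57, SE 0.37, limma adjusted p = 0.0339). The rise was 1.79 on the log2 scale for mutant replicates 1 and 2 (limma adjusted p = 0.0314) and 1.35 for replicates 3 and 4 (limma adjusted p = 0.0301). The call was lost without mutant replicate 3 (limma adjusted p = 0.0836) and without wild type replicates 1, 3 or 4 (limma adjusted p = 0.107, 0.0870 and 0.104).

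Fbxw13 belongs to the tandem Fbxw group. It read 169, 161, 105 and 118 in the mutants and 49, 38.1, 40.9 and 66.9 in wild type samples, and all 8 values were above the background bound of their arrays. Mutant replicates 1 and 2 were the highest, replicates 3 and 4 came next, and no wild type sample reached them. Fbxw13 rose 2.85-fold (log2 change 1.51, SE 0.30, limma adjusted p = 0.0210), by 1.80 for mutant replicates 1 and 2 and 1.23 for replicates 3 and 4 on the log2 scale, and it passed in both (limma adjusted p = 0.0173 and 0.0112). Leaving out any 1 wild type sample ended the call (limma adjusted p = 0.0726, 0.0568, 0.0688 and 0.0562 without replicates 1 to 4), and leaving out any 1 mutant sample did not.

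Fbxw24, of the same group, read 2116, 3067, 2364 and 2760 in mutants and 1208, 799, 1792 and 1221 in wild type samples. The lowest mutant stood above the highest wild type sample, wild type replicate 3. The rise was 2.12-fold (log2 change 1.08, SE 0.28, limma adjusted p = 0.0444), and its size was alike in both mutant pairs, at 1.08 and 1.08 on the log2 scale, although of the pairs replicates 3 and 4 passed and replicates 1 and 2 did not (limma adjusted p = 0.0695 for replicates 1 and 2 and 0.0129 for replicates 3 and 4). The call was lost without mutant replicates 3 or 4 (limma adjusted p = 0.0903 and 0.103). It was also lost without any 1 wild type sample (limma adjusted p between 0.0612 without replicate 3 and 0.124 without replicate 1, with 0.103 and 0.120 without replicates 2 and 4). Nor did Fbxw24 pass with no signal filter (limma adjusted p = 0.0694), without an intensity trend (limma adjusted p = 0.0589) or with arrays centred on their 75th percentile (limma adjusted p = 0.0914).

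**Figure D2:**
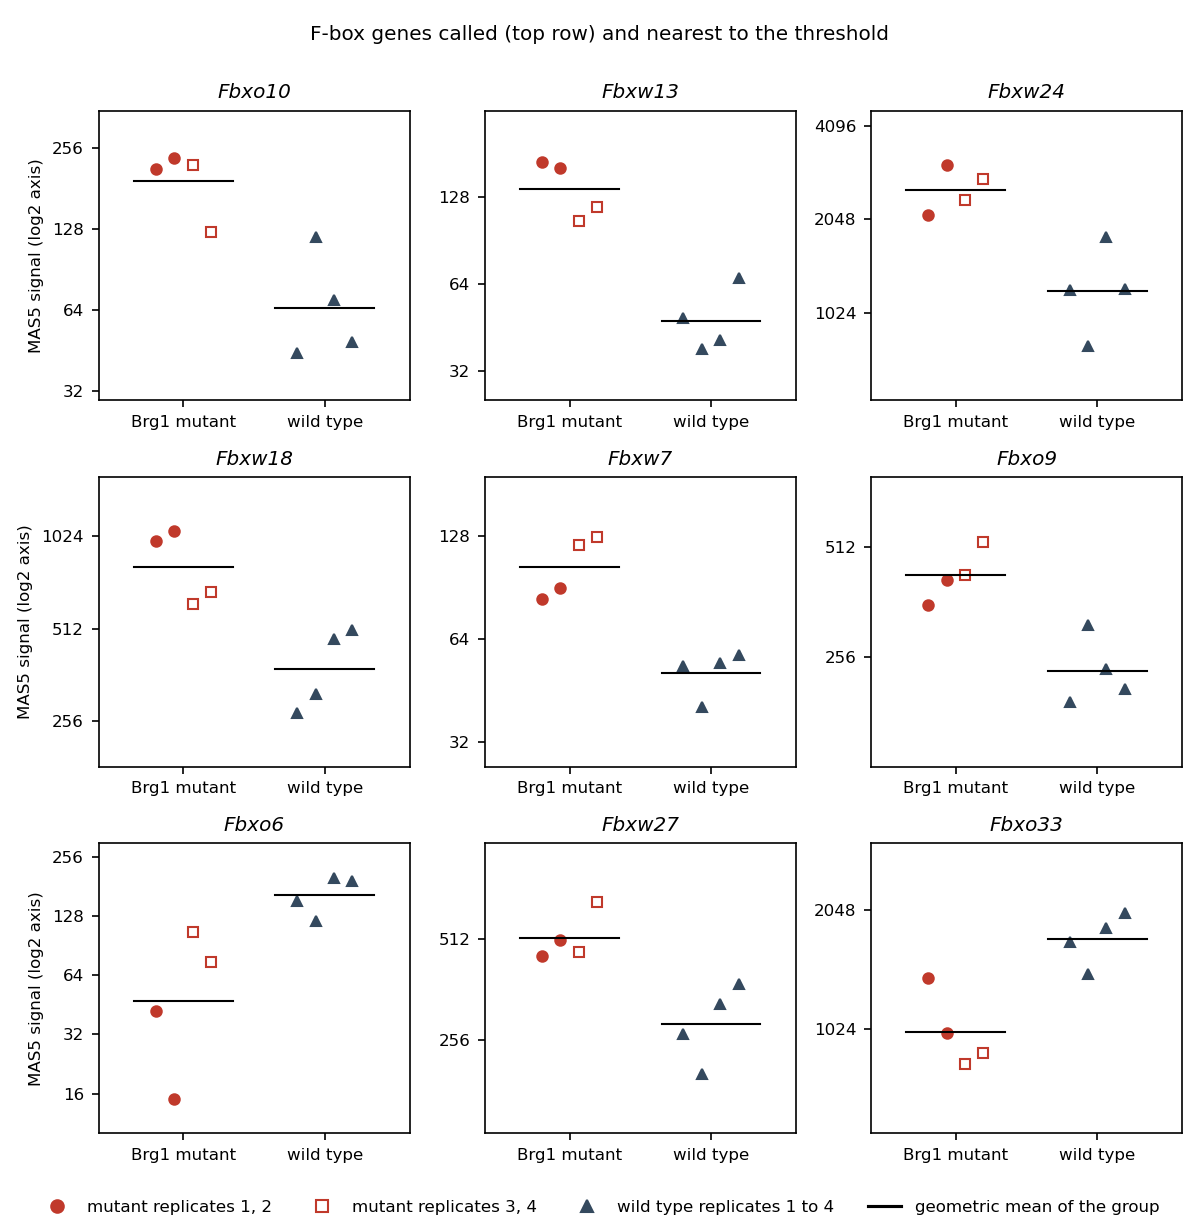
MAS5 signal (log2 axis, a scale of its own in each panel) of the 3 called F-box genes (top row) and the 6 nearest to the threshold, with mutant replicates 1 and 2 as filled circles, mutant replicates 3 and 4 as open squares, wild type samples as triangles and the geometric mean of each group as a line. The groups do not overlap in any of the 9 panels, and mutants are higher in 7 of them and lower for Fbxo6 and Fbxo33.

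Both called Fbxw genes lie in a run of 15 neighbouring protein-coding genes on chromosome 9, all of them Fbxw genes in the RefSeq annotation: in order Fbxw21, Fbxw13, Fbxw20, Fbxw14, Fbxw28, Fbxw22, Fbxw16, Fbxw19, Fbxw23, Fbxw15, Fbxw24, Fbxw25, Fbxw18, Fbxw26 and Fbxw27. The run was read by 9 of the 67 member genes. RefSeq promoter windows, from 250 bases before to 50 after the annotated start, were in the table for 12 genes of the run, with Fbxw13, Fbxw22 and Fbxw27 not among them. Of the 12, 6 were tested here (Fbxw24, which was called, and Fbxw21, Fbxw14, Fbxw16, Fbxw19 and Fbxw18, which were not). Windows are shown because that of Fbxw24 and those of genes that were not called are close copies. Leaving Fbxw23 aside, the 55 pairs among the other 11 had 84.9% to 97.7% identical bases over 254 to 300 aligned bases, while Fbxw23 had 56.9% to 63.1% with each of them. Below are the windows of Fbxw24, which was called, of Fbxw18, which lay closest to the threshold, and of Fbxw19 and Fbxw16, whose groups overlapped (GRCm38.p6, minus strand, 5′ to 3′). Capitals mark the longest stretch shared by all 11, 12 bases long.
Fbxw24, chr9:109626010-109626309: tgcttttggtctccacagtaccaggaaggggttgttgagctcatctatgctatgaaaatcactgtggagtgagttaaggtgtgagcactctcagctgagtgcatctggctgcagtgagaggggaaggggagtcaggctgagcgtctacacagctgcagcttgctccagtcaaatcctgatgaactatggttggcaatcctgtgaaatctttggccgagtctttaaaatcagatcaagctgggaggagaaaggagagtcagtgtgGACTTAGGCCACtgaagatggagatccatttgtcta
Fbxw18, chr9:109702651-109702950: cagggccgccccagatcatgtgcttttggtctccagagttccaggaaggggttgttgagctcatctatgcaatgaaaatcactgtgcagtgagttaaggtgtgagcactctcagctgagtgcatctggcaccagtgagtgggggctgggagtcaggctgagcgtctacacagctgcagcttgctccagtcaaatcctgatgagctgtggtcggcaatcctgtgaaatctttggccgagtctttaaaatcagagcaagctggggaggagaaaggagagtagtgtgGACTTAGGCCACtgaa
Fbxw19, chr9:109495805-109496104: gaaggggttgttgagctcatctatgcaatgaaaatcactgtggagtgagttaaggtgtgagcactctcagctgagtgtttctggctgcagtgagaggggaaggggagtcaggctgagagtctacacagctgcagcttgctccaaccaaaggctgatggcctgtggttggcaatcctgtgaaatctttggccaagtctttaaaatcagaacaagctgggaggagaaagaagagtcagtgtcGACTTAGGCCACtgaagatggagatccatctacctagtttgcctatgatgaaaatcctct
Fbxw16, chr9:109449091-109449390: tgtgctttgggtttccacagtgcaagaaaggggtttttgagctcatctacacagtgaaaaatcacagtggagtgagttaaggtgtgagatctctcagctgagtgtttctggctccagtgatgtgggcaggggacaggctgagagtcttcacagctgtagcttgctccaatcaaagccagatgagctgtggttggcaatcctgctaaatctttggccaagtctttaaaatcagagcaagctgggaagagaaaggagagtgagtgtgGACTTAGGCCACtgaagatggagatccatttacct
The 12-base stretch, GACTTAGGCCAC, was searched on both strands and occurred in the windows of 11 of the 12 genes, Fbxw23 being the exception. In the whole table it occurred in 12 of 32851 windows (0.0365%), all of them of these 11 genes, since Fbxw21 has 2 windows. The stretch was picked because these 11 share it, so finding it in them was fixed in advance. As close copies, the 11 windows do not count as independent promoters in this or the following motif counts. The E-box CANNTG, whose letters are the same on both strands and which may overlap other copies of itself, occurred 2 to 5 times in the window of each of the 12 genes and at least once in 72.3% of all windows. The TATA motif TATAAA, on either strand, occurred in 0 of the 12 and in 13.6% of all windows. The window of Fbxw24 had 95% identical aligned bases with that of Fbxw18, 94.2% with that of Fbxw19 and 87.9% with that of Fbxw16. How far each probe set of the run reads its own gene only was not tested.

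All 9 genes of the run that have a probe set of their own were tested. Besides the 2 that rose (22.2%, where 3.01% of all tested genes were called higher), 7 did not pass. The median change of the 9 was 0.48 on the log2 scale, against -0.05 over all tested genes. Fbxw18 read 986, 1066, 614 and 674 in mutants and 272, 313, 474 and 507 in wild type samples. Mutant replicates 1 and 2 were about level with each other and above replicates 3 and 4, which in turn were above all wild type samples. Its log2 change of 1.10 (SE 0.29) just missed the threshold (limma adjusted p = 0.0505), and it passed for mutant replicates 1 and 2 alone (log2 change 1.44, limma adjusted p = 0.0261) and not for replicates 3 and 4 alone (log2 change 0.77, limma adjusted p = 0.0523). It also passed with quantile normalization, the upper 30% of probe sets, a higher pseudocount or probe sets with names ending in _x_at left out (limma adjusted p = 0.0481, 0.0394, 0.0489 and 0.0489).

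Fbxw27, at the end of the run, read 457, 510.4, 467 and 659.7 in mutants and 267, 202, 328 and 375 in wild type samples, with no overlap. It did not pass (log2 change 0.86, SE 0.26, limma adjusted p = 0.0711), although mutant replicates 3 and 4 did so alone (log2 change 0.96, limma adjusted p = 0.0219, against 0.76 and 0.142 for replicates 1 and 2). Fbxw22 read 1217, 1900.4, 1505 and 1344 in mutants and 878, 868, 1304 and 1254 in wild type samples. Mutant replicate 1 lay within the wild type range and the other 3 mutants above it, and the log2 change of 0.48 did not pass (SE 0.25, limma adjusted p = 0.257).

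The other 4 genes of the run were spread around 0. Fbxw16 read 1235, 1729, 609.8 and 587 in mutants and 726, 889.8, 735 and 886 in wild type samples, so that mutant replicates 1 and 2 were above and replicates 3 and 4 below all wild type samples (log2 change 0.22, SE 0.35, limma adjusted p = 0.754 over all 8). Fbxw19 read 1291, 1323, 774 and 594 in mutants and 957, 653, 1251 and 1055 in wild type samples, with overlapping groups (log2 change -0.018, limma adjusted p = 0.981). Fbxw21 read 419, 694, 467 and 461 in mutants and 358, 505, 596 and 624 in wild type samples and also overlapped (log2 change -0.025, limma adjusted p = 0.968). Fbxw14 read 87, 137, 60 and 78.2 in mutants and 74.7, 95.3, 110.4 and 169.7 in wild type samples, again with overlap (log2 change -0.31, SE 0.35, limma adjusted p = 0.620). A p above the threshold does not show that these genes were unaltered, and whether the run's genes differ from one another in their change was not tested.

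Besides these, 1 probe set assigned to both Fbxw28 and Fbxw14 and 1 assigned to both Fbxw23 and Fbxw25 are no members, since they carry 2 symbols. The first read 1108, 911, 787 and 666 in mutants and 632, 637, 847 and 675 in wild type samples and overlapped (limma adjusted p = 0.465). The probe set of Fbxw23 and Fbxw25 read 164, 200.2, 121 and 126 in mutants and 96.9, 81.3, 115 and 80.3 in wild type samples, all mutants above all wild type samples, without passing (log2 change 0.69, limma adjusted p = 0.139). Fbxw17, a paralogue by number that lies on chromosome 13, read 49.9, 77.9, 134 and 134 in mutants and 31.7, 72.3, 57 and 71.5 in wild type samples. Mutant replicates 3 and 4 were the 2 highest, and the change over all 8 samples did not pass (log2 change 0.73, limma adjusted p = 0.30).

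**Figure D3:**
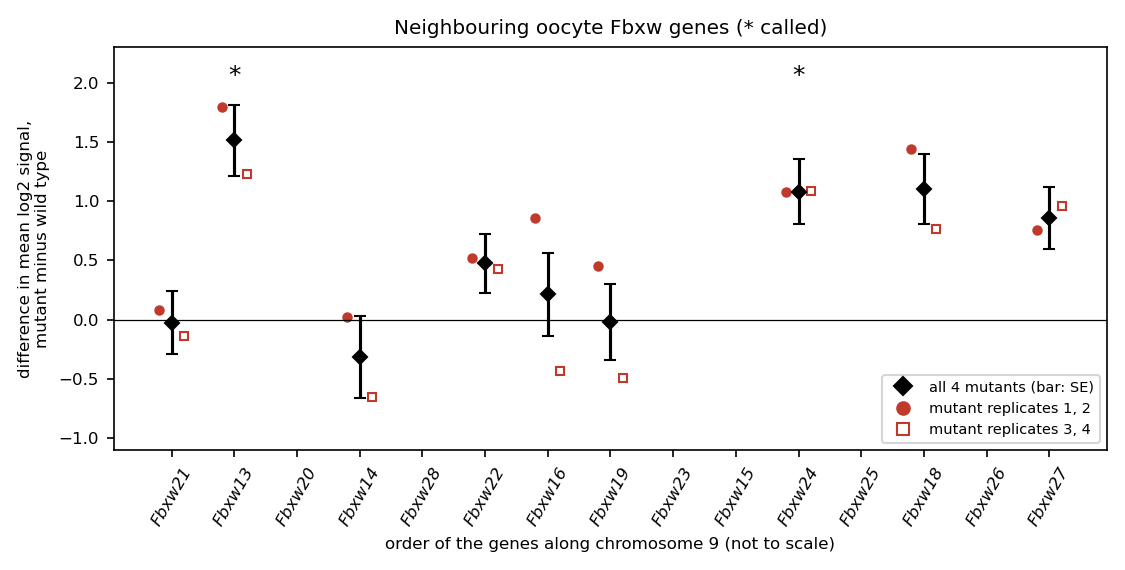
Difference in mean log2 MAS5 signal, mutant minus wild type, for the neighbouring Fbxw genes in their order along chromosome 9, as all 4 mutants (diamonds, with the standard error of the fit as bars), mutant replicates 1 and 2 (filled circles) and mutant replicates 3 and 4 (open squares). Places without a symbol are genes with no probe set of their own here, and asterisks mark the called genes Fbxw13 and Fbxw24, at 1.51 and 1.08.

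Oocyte transcripts of other genes were measured on the same arrays. Of 11 tested oocyte and 2-cell markers 2 rose and 1 fell (18.2% and 9.09%, where 3.01% and 4.03% of all tested genes did), and 8 did not pass. Zar1, an oocyte factor needed after fertilization, had a log2 change of 2.76 (limma adjusted p = 0.000674), the oocyte growth factor gene Gdf9 of 1.26 (limma adjusted p = 0.0343) and the oocyte homeobox gene Obox3 of -1.67 (limma adjusted p = 0.0206). These 3 were named after their values were seen. Signal summed over 12 such markers was 53327 to 56298 in mutant replicates 1 and 2, 22675 to 25652 in mutant replicates 3 and 4, and 22507 to 29816 in wild type samples, so the sum was high in mutant replicates 1 and 2 and not in replicates 3 and 4. Much of the excess was Oosp1, with a mean of 20667 in replicates 1 and 2 against 6624 in wild type samples. Not every marker was higher there: Obox3 was lower (904, against 1921) and Eif1a level (384, against 387). The part of the summed signal in the Fbxw values was not tested.

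None of the members known from the control of the cell cycle passed the test over all 8 samples. Fbxo5 encodes EMI1, an inhibitor of the anaphase-promoting complex. It read 1187, 866, 460.3 and 553 in mutants and 1617, 942, 1964 and 1464 in wild type samples, with mutant replicate 1 above the lowest wild type sample. The log2 change of -1.02 did not pass (SE 0.34, limma adjusted p = 0.101). It passed without mutant replicate 1 (log2 change -1.26, limma adjusted p = 0.0377), and it was -0.51 for mutant replicates 1 and 2 (limma adjusted p = 0.324) and -1.52 for replicates 3 and 4 (limma adjusted p = 0.00222). Fbxo43 encodes the related EMI2, which holds eggs in metaphase before fertilization, and was too dim to be tested, at 5.90, 7.60, 1 and 1.90 in mutants and 12, 43.7, 11.2 and 16 in wild type samples. All mutant values and 3 of 4 wild type values of Fbxo43 were under the background bound.

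Fbxw7 encodes the receptor for cyclin E, MYC and NOTCH1. It read 83.8, 90, 120.2 and 127 in mutants and 53.2, 40.6, 54.5 and 57.6 in wild type samples. Mutant replicates 3 and 4 were the highest, and even the lowest mutant was above every wild type sample. The log2 change of 1.02 missed the threshold (SE 0.28, limma adjusted p = 0.0532), as did its other probe set, which gave almost the same value (log2 change 1.14, limma adjusted p = 0.0543). It passed without mutant replicate 1 or 2 (limma adjusted p = 0.0356 and 0.0412) and without an intensity trend (limma adjusted p = 0.0479), and mutant replicates 3 and 4 passed alone (log2 change 1.27, limma adjusted p = 0.00471).

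Fbxw11 encodes beta-TrCP2, a receptor for phosphorylated beta-catenin and I-kappa-B. It read 7308, 6414, 3541 and 3318 in mutants and 4390.5, 3686, 5382 and 4365 in wild type samples. Mutant replicates 1 and 2 were above and replicates 3 and 4 below all wild type samples, which left a log2 change of 0.13 over all 8 (SE 0.31, limma adjusted p = 0.831). The name of this probe set ends in _x_at, which marks probes that may read other transcripts too. Without such probe sets Fbxw11 had a log2 change of -0.086, and it turned to -0.12 with quantile normalization and to -0.011 with 75th percentile centring.

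Fbxo9 did not pass either, but all 4 mutants were above all wild type samples. It encodes a receptor that in human cells acts on the TEL2 and TTI1 partners of mTOR, and read 355, 417, 431 and 529.8 in mutants and 193, 313, 238 and 210 in wild type samples (log2 change 0.87, SE 0.24, limma adjusted p = 0.0570). It passed without mutant replicate 1 (limma adjusted p = 0.0402) and over the upper 30% of probe sets (limma adjusted p = 0.0461). Fbxo6, which encodes a receptor for misfolded glycoproteins, had the lowest estimate of all 55 members. It read 42.2, 15.1, 107 and 75.2 in mutants and 152, 121, 200 and 194 in wild type samples, every mutant below every wild type sample and mutant replicate 2 under the background bound. The mutants differed widely among themselves, and the change did not pass (log2 change -1.78, SE 0.53, limma adjusted p = 0.0703). Mutant replicates 1 and 2 alone passed (log2 change -2.69, limma adjusted p = 0.0112), replicates 3 and 4 alone passed with a smaller estimate (log2 change -0.87, limma adjusted p = 0.0351), and the gene passed over all 8 with 75th percentile centring (limma adjusted p = 0.0477).

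Fbxo33 read 1380.1, 1002, 837 and 891 in mutants and 1707, 1415, 1847 and 2019 in wild type samples, the highest mutant, replicate 1, just under the lowest wild type sample. It did not pass (log2 change -0.78, SE 0.24, limma adjusted p = 0.0749), and its other probe set was close (log2 change -0.69, limma adjusted p = 0.104). Without mutant replicate 1 it passed (log2 change -0.93, limma adjusted p = 0.0306). Fbxo11, whose human protein targets the repressor BCL6, read 1096, 1192, 624 and 654 in mutants and 1306, 1238, 1476 and 1306 in wild type samples. Mutant replicates 1 and 2 were just below the wild type range and replicates 3 and 4 far below it, with log2 changes of -0.22 and -1.06 (limma adjusted p = 0.537 and 0.000949, and 0.166 over all 8).

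In Fbxl20, Fbxl5, Fbxw4 and Fbxo34 the mutant pairs lay apart. Fbxl20, known in mouse neurons as SCRAPPER, read 4837, 6029, 2360.1 and 2102 in mutants and 3406, 4203, 3998 and 3481 in wild type samples, so that replicates 1 and 2 were above and replicates 3 and 4 below every wild type sample. Its log2 change was 0.52 for replicates 1 and 2 (limma adjusted p = 0.121), -0.75 for replicates 3 and 4 (limma adjusted p = 0.00438) and -0.12 over all 8 (SE 0.35, limma adjusted p = 0.874). Another Fbxl20 probe set went the other way, at 85, 108, 202 and 257 in mutants and 104, 122, 91.6 and 81.1 in wild type samples. It was called higher in replicates 3 and 4 (log2 change 1.21, limma adjusted p = 0.00440), while a further probe set was called lower there (-0.80, limma adjusted p = 0.00499). Fbxl5 encodes the iron-sensing receptor for IRP2 and was arranged like the brightest Fbxl20 probe set. Fbxl5 read 1662, 2065, 913 and 957 in mutants and 1203, 1184, 1359.9 and 1380.3 in wild type samples (log2 change 0.042, limma adjusted p = 0.951). Fbxw4, called dactylin in mouse limb development, read 2159, 3734, 1082 and 1092 in mutants and 2286, 1630.3, 1606 and 2011 in wild type samples, with mutant replicates 3 and 4 below all wild type samples (log2 change -0.084, limma adjusted p = 0.921). In Fbxo34, at 1155, 1264, 744 and 777 in mutants and 1226, 1134, 1215 and 1239.8 in wild type samples, replicates 1 and 2 lay within or near the wild type range and replicates 3 and 4 below it (log2 change -0.33, limma adjusted p = 0.431).

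Fbxo15, known as a marker gene of mouse embryonic stem cells, read 5124, 1884, 2030.3 and 2137 in mutants and 2827, 2992, 3173 and 2625 in wild type samples. Mutant replicate 1 was far above all others and the other 3 mutants were below all wild type samples (log2 change -0.19, SE 0.32, limma adjusted p = 0.768). Fbxo8, which carries a Sec7 domain, read 1873, 2468, 961 and 936 in mutants and 2693, 1525, 2719 and 2606 in wild type samples, with wild type replicate 2 well below the other 3 (log2 change -0.70, SE 0.36, limma adjusted p = 0.253). Fbxo30, known from muscle atrophy as MUSA1, read 205, 248, 169 and 133 in mutants and 138, 113, 153 and 130.4 in wild type samples, where mutant replicate 4 lay inside the wild type range (log2 change 0.47, limma adjusted p = 0.292). In replicates 3 and 4 alone this probe set did not pass (log2 change 0.18, limma adjusted p = 0.566). Its dimmer tested probe sets were called higher there (log2 change 1.20, 0.80 and 1.74, limma adjusted p = 0.0438, 0.0342 and 0.00505).

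Set apart, the mutant pairs gave different numbers of called members. Mutant replicates 1 and 2 against wild type called 3 of 55 members higher (5.45%, where 3.86% of tested genes were called higher) and 1 lower (1.82%, where 3.58% were), namely Fbxo10, Fbxw13 and Fbxw18, and Fbxo6. Mutant replicates 3 and 4 called 9 higher (16.4%, where 19.2% were) and 15 lower (27.3%, where 24.4% were). The 9 are Fbxo10, Fbxw13, Fbxw24, Fbxw27, Fbxw7, Fbxw17, Fbxo9, Fbxo22 and Fbxo3, and the 15 are Fbxl2, Fbxl5, Fbxl12, Fbxl14, Fbxl19, Fbxl20, Fbxo5, Fbxo6, Fbxo8, Fbxo11, Fbxo15, Fbxo33, Fbxo34, Fbxo46 and Fbxw4. The member shares of replicates 3 and 4 lie near those of all tested genes. These calls are those of each gene's brightest probe set, and another Fbxl20 probe set was called higher in replicates 3 and 4. Over the 22518 probe sets replicates 3 and 4 correlated with each other at 0.969 and replicates 1 and 2 at 0.895. Estimates of the pairs had opposite signs for 23 members, 20 of them above 0 in replicates 1 and 2 and below 0 in replicates 3 and 4. Over all tested genes the signs were opposite for 4945 of 11934, 3100 of them above 0 in replicates 1 and 2 and below 0 in replicates 3 and 4. The difference between the pairs was not tested, since the labels give no such groups.

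By their brightest probe sets, 6 of 13 tested Fbxl genes were called lower and 0 higher in mutant replicates 3 and 4 (46.2% and 0%, where 24.4% and 19.2% of all tested genes were). Other tested probe sets went both ways there. They were called higher for Fbxl20 (log2 change 1.21, limma adjusted p = 0.00440) and Fbxl17 (1.11, limma adjusted p = 0.0167), and lower for a further Fbxl20 probe set (-0.80, limma adjusted p = 0.00499). Over all 8 samples 0 of 13 Fbxl genes were called in either direction, where 3.01% of all tested genes were called higher and 4.03% lower. Whether the class differs from other genes was not tested. Fbxl19, a CpG island binding protein related to KDM2A and KDM2B, read 207, 204, 66.1 and 87.1 in mutants and 320.4, 311, 181 and 193 in wild type samples (log2 change -0.96, limma adjusted p = 0.178, against -1.68 and 0.00222 for replicates 3 and 4). Fbxl12 read 271, 218, 137 and 129.7 in mutants and 309, 314, 342 and 290.1 in wild type samples, without overlap (log2 change -0.80, limma adjusted p = 0.110). Fbxl14, whose vertebrate protein targets Snail factors, read 599, 746, 280.5 and 335 in mutants and 536, 524, 824 and 706 in wild type samples, with only replicates 3 and 4 below the wild type range (log2 change -0.49, limma adjusted p = 0.397). Fbxl12, Fbxl14 and Fbxl19 were picked for description after their values were seen. Of 25 tested Fbxo genes 1 was called higher over all 8 samples (4%), and of 17 tested Fbxw genes 2 (11.8%), where 3.01% of all tested genes were. None of either class was called lower, where 4.03% of all tested genes were. Both called Fbxw genes are in the run on chromosome 9. The 8 tested Fbxw genes outside the run had a median log2 change of 0.07.

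Log2 changes of the remaining tested members, none of which passed, were as follows. Among the Fbxl genes Fbxl2 had -1.07, Fbxl16 0.39, Fbxl21 0.37, Fbxl7 0.21, Fbxl4 0.11, Fbxl18 -0.037 and Fbxl6 -0.021. All these groups overlapped, and Fbxl2 was the lowest of the class (limma adjusted p = 0.120 over all 8 samples, 0.00910 for mutant replicates 3 and 4 at -1.49). Among the Fbxo genes Fbxo21 had 0.78, Fbxo22 0.65, Fbxo3 0.61, Fbxo16 0.55, Fbxo17 0.32 and Fbxo38 0.25. Fbxo22, a receptor for the histone demethylase KDM4A in human cells, rose by 1.12 in mutant replicates 3 and 4 (limma adjusted p = 0.0296), beside an estimate of 0.18 in replicates 1 and 2. Its dimmer tested probe sets did not pass in replicates 3 and 4 (log2 change 0.35 and -0.52, limma adjusted p = 0.309 and 0.226). Nearer to 0 or below it were Fbxo36 at 0.14, Fbxo25 at 0.12, Fbxo42 at 0.085, Fbxo7 at 0.022, Fbxo27 at 0.0045, Fbxo28 at -0.047, Fbxo31 at -0.33 and Fbxo46 at -0.45. A dimmer tested probe set of Fbxo42 was lower in every mutant than in any wild type sample (log2 change -1.07, limma adjusted p = 0.0542). That probe set passed in mutant replicates 3 and 4 alone (log2 change -1.14, limma adjusted p = 0.0202). Fbxo7 is known in human as a Parkinson disease gene, and Fbxo31 encodes a receptor for cyclin D1 in human cells. Among the Fbxw genes Fbxw5 had 0.30, Fbxw2 -0.0027, Fbxw8 -0.075 and Fbxw9 -0.62. Fbxw9 was the lowest tested Fbxw gene and about as low in both mutant pairs, at -0.61 in replicates 1 and 2 and -0.62 in replicates 3 and 4 (limma adjusted p = 0.228 over all 8).

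Probe sets of the same gene did not always go the same way. In 17 member genes 2 or more probe sets were tested, and of their 27 further probe sets 15 had the sign of the brighter one and 12 the opposite sign. None of the 27 was called by limma over all 8 samples (lowest adjusted p = 0.0538). In mutant replicates 3 and 4 alone some were called. Some of these had the sign of the brighter one there, such as Fbxo33 (log2 change -0.91, limma adjusted p = 0.00228) and Fbxo3 (1.18, limma adjusted p = 0.00222). Others had the opposite sign, such as Fbxw8 (1.29, limma adjusted p = 0.00315), Fbxo45 (-1.15, limma adjusted p = 0.00324) and Fbxl17 (1.11, limma adjusted p = 0.0167). Over all 8 samples the brighter probe set of Fbxl17 had a log2 change of -0.52 (limma adjusted p = 0.280) and the other of 1.01 (limma adjusted p = 0.0538). All 4 mutants were above all wild type samples on the second. Fbxo45 had 0.45 on the brighter and -0.86 on the other (limma adjusted p = 0.233 and 0.113). Which part of a transcript a probe set reads was not analysed here.

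The 12 members under the signal filter were Fbxl8, Fbxl12os, Fbxl13, Fbxl15, Fbxo2, Fbxo4, Fbxo24, Fbxo32, Fbxo41, Fbxo43, Fbxo44 and Fbxw10. With no filter 0 of them passed over all 8 samples. Mutant replicates 3 and 4 alone passed for 4 of them with no filter: Fbxo4 (log2 change 5.90, limma adjusted p = 4.1e-04), Fbxo32 (5.38, limma adjusted p = 0.00215), Fbxo43 (-3.67, limma adjusted p = 0.00787) and Fbxl15 (2.90, limma adjusted p = 0.0217). None of the 12 passed for mutant replicates 1 and 2 alone. The share of all probe sets that passed these fits with no filter is not given here. Among tested genes above the filter, replicates 3 and 4 called 19.2% higher and 24.4% lower. Fbxo32, which encodes the muscle atrophy factor atrogin-1, read 19.6, 9.10, 294 and 409.7 in mutants and 11.3, 3, 24.7 and 5.80 in wild type samples. Its signal was high in mutant replicates 3 and 4 alone, the arrays with high summed granulosa and oviduct marker signal. Its 2 other probe sets were also highest there, at 15.4, 50.9, 399 and 416 and 25.3, 6.30, 91.8 and 46.1 in mutants. In wild type samples these 2 read 11.3, 2.90, 4.10 and 1.30 and 6.90, 25.1, 4.70 and 33.4. With no filter the log2 change of Fbxo32 was 3.03 (limma adjusted p = 0.197). The dim genes without a sentence of their own, Fbxl8, Fbxl12os, Fbxl13, Fbxo2, Fbxo24, Fbxo41, Fbxo44 and Fbxw10, had overlapping groups. Fbxo4, reported as a receptor for cyclin D1 in human cells, read 3.60, 40.1, 96.2 and 143 in mutants and 1.30, 2.90, 2.50 and 1.6 in wild type samples. All mutants were above all wild type samples, and with no filter Fbxo4 just missed the threshold (log2 change 4.25, limma adjusted p = 0.0547). Fbxl15 read 16.4, 38, 63.1 and 53.6 in mutants and 18.4, 9.90, 6.10 and 3.30 in wild type samples (log2 change 2.29, limma adjusted p = 0.0910 with no filter). Log2 changes of such dim probe sets are uncertain, and these 3 were picked after their values were seen.

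**Figure D4:**
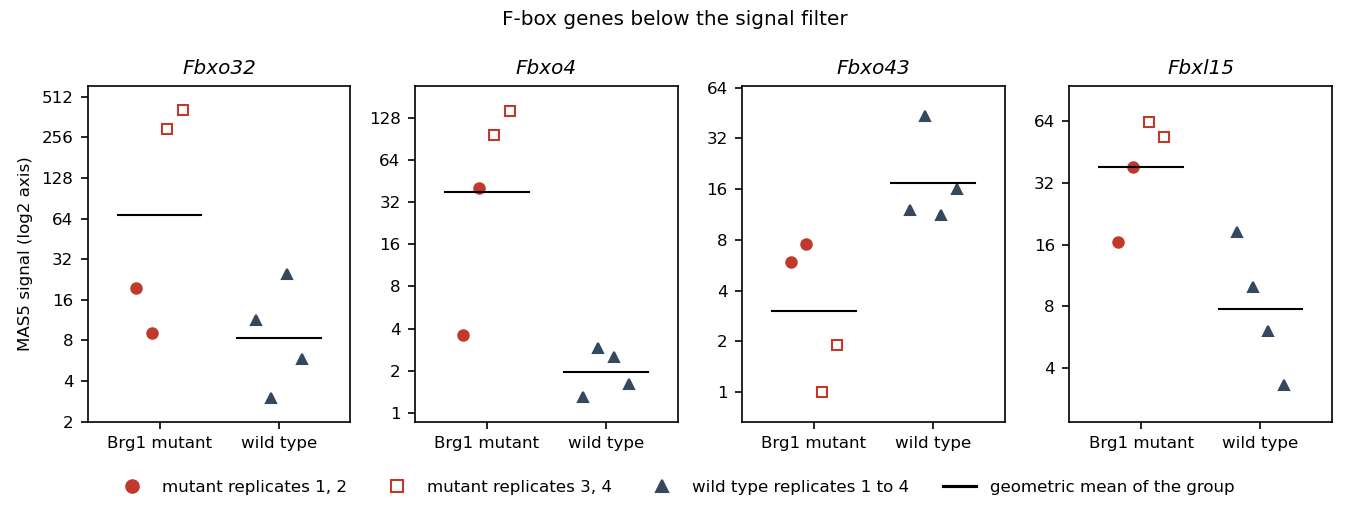
MAS5 signal (log2 axis, a scale of its own in each panel, values under 1 drawn at 1) of 4 F-box genes under the signal filter, with mutant replicates 1 and 2 as filled circles, mutant replicates 3 and 4 as open squares, wild type samples as triangles and the geometric mean of each group as a line. Fbxo32 is at 19.6, 9.10, 294 and 409.7 in mutants, high in replicates 3 and 4 only, and Fbxo43 is lower in every mutant than in any wild type sample.

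Tested genes for SKP1, cullins, RING proteins, the NEDD8 pathway, CAND exchange factors, ubiquitin-conjugating enzymes of SCF and the COP9 signalosome numbered 32. Of these, 0 were called over all 8 samples by limma, where 3.01% of all tested genes were called higher and 4.03% lower. An unadjusted limma p under 0.05 was found for 8 of the 32, and for 3225 of 11934 tested genes. The median log2 change of the 32 was -0.04. The scaffold gene Cul1 read 5807, 7628, 3761 and 3300.4 in mutants and 4417, 4144, 5538 and 4459 in wild type samples, replicates 1 and 2 above and replicates 3 and 4 below all wild type samples (log2 change 0.071, SE 0.30, limma adjusted p = 0.913; -0.18 with quantile normalization and -0.074 with 75th percentile centring). The adaptor gene Skp1 read 2536, 4565, 2769 and 2317 in mutants and 2142, 2203, 3127 and 2727 in wild type samples (log2 change 0.22, SE 0.27, limma adjusted p = 0.664). The exchange factor gene Cand1 read 2258, 1857, 1087 and 1364 in mutants and 1914, 1171, 2146 and 2189.5 in wild type samples (log2 change -0.19, SE 0.30, limma adjusted p = 0.749). The RING gene Rbx1 was too dim to be tested, at 41.3, 91.1, 37.3 and 19.8 in mutants and 54.7, 45.6, 7 and 31.2 in wild type samples. In mutant replicates 3 and 4 alone 7 partners were called higher and 11 lower (21.9% and 34.4%, where 19.2% and 24.4% of all tested genes were). In replicates 1 and 2 alone 1 was called higher and 0 lower (3.12% and 0%, where 3.86% and 3.58% were). The catalytic COP9 subunit gene Cops5, which had the highest estimate of the 32 and was named for that, read 274, 296, 579.6 and 657 in mutants and 252, 151, 191 and 167 in wild type samples without overlap (log2 change 1.17, limma adjusted p = 0.0621).

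F-box genes that go by other names numbered 7, all tested, of which 1 fell over all 8 samples (14.3%, where 4.03% of all tested genes did) and 4 fell in mutant replicates 3 and 4 alone (57.1%, where 24.4% did). Fbh1, a DNA helicase with an F-box, was the 1 called over all 8 samples and was named for that. It read 502, 513, 379.8 and 431 in mutants and 966, 634, 1193 and 1042 in wild type samples, every mutant below every wild type sample. Fbh1 fell 2.06-fold (log2 change -1.04, SE 0.25, limma adjusted p = 0.0372). The call was lost without mutant replicate 3 or 4 (limma adjusted p = 0.103 and 0.0928) and without wild type replicate 1, 3 or 4 (limma adjusted p = 0.112, 0.115 and 0.115). It was also lost without both mutant replicates 3 and 4, with quantile normalization, with no filter and without an intensity trend (limma adjusted p = 0.0878, 0.0532, 0.0511 and 0.0528). Skp2, the receptor for the inhibitor p27, read 792, 781, 414 and 403 in mutants and 1003, 1025, 970.3 and 1065 in wild type samples. The groups did not overlap and the wild type samples were close together, but the mutant pairs stood apart and the change did not pass (log2 change -0.84, SE 0.28, limma adjusted p = 0.0958). It passed without mutant replicate 1 or 2 (limma adjusted p = 0.0468 and 0.0416). Ccnf, which encodes cyclin F, read 216, 137, 115 and 81.3 in mutants and 288, 272, 155 and 250.5 in wild type samples (log2 change -0.87, limma adjusted p = 0.141; without mutant replicate 1 -1.11 and 0.0485). Btrc, which encodes beta-TrCP1, overlapped widely, at 110.5, 61.2, 116 and 151 in mutants and 60.7, 193, 93.5 and 100.5 in wild type samples (log2 change 0.027, limma adjusted p = 0.977; the sign turned with quantile normalization and 75th percentile centring).

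**Figure D5:**
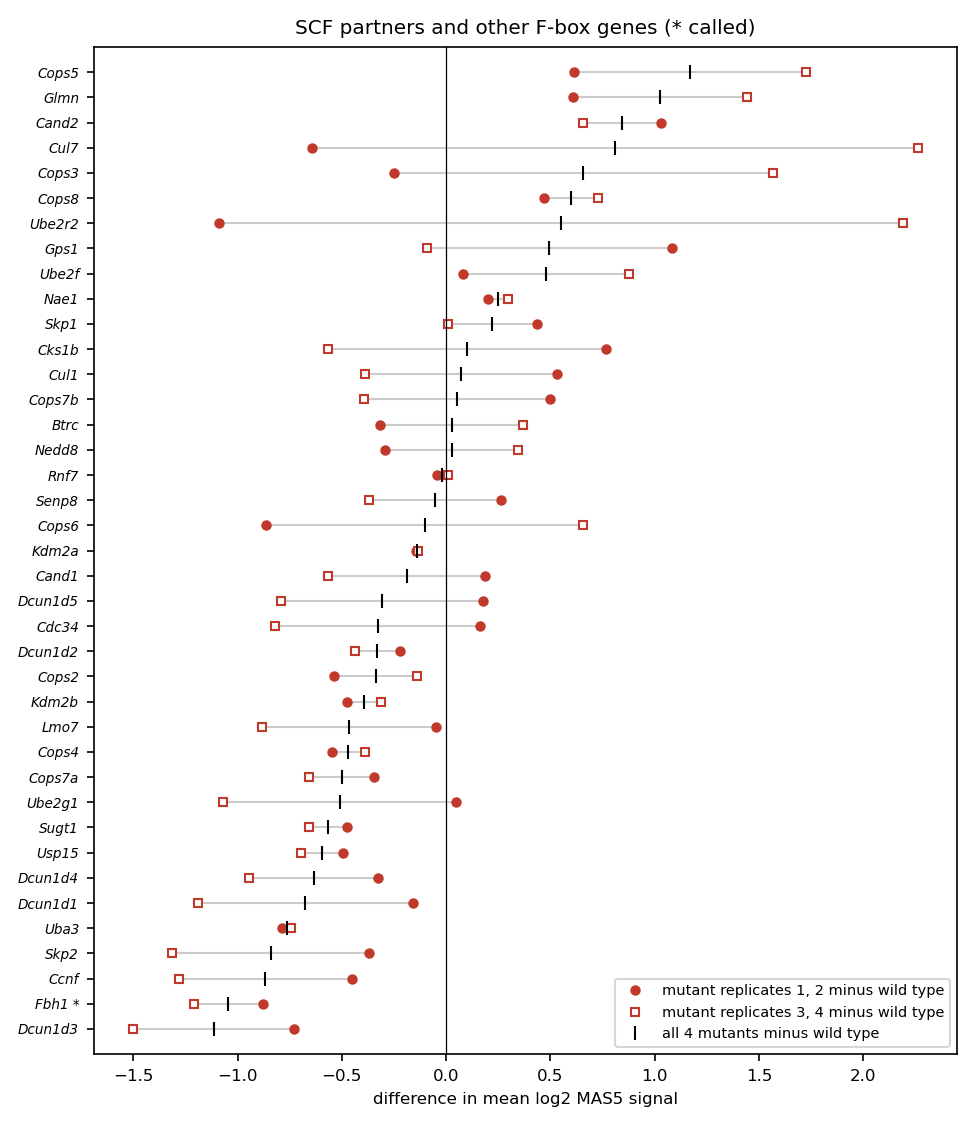
Difference in mean log2 MAS5 signal, mutant minus wild type, for 39 tested genes, 32 SCF partners and 7 F-box genes with other names, in order of the difference over all 8 samples (vertical ticks), with mutant replicates 1 and 2 (filled circles) and mutant replicates 3 and 4 (open squares) apart. An asterisk marks the one called gene, Fbh1, at -1.04.

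Transcripts of 30 tested genes whose proteins are reported F-box substrates had a median log2 change of -0.07, with 1 called higher and 0 lower, where 3.01% and 4.03% of all tested genes were. Mutant replicates 3 and 4 alone called 6 higher and 14 lower (20.0% and 46.7%, where 19.2% and 24.4% were), and replicates 1 and 2 alone 2 higher and 0 lower (6.67% and 0%, where 3.86% and 3.58% were). The largest rises in replicates 3 and 4 were those of Myc and Jun, named for that: Myc read 43.4, 48.6, 853 and 955 in mutants and 62.5, 69.4, 39.7 and 46.8 in wild type samples, and Jun 45.4, 41.5, 442 and 503 in mutants and 28.3, 36.8, 26.3 and 32.9 in wild type samples. Both were high on the arrays with high summed granulosa and oviduct marker signal, whose part was not tested. Neither passed over all 8 samples (limma adjusted p = 0.242 and 0.115). The gene called over all 8 samples, named for that, is Nfkbia, which encodes I-kappa-B alpha, a substrate of beta-TrCP. Nfkbia read 3798, 6722, 4134 and 3877 in mutants and 2226, 2144, 2362 and 2432 in wild type samples, without overlap (log2 change 0.97, SE 0.25, limma adjusted p = 0.0433). It lost the call without mutant replicate 3 or 4 (limma adjusted p = 0.0881 and 0.0739), without wild type replicates 1 to 4 in turn (limma adjusted p = 0.129, 0.102, 0.113 and 0.115), with no filter (limma adjusted p = 0.0804), without an intensity trend (limma adjusted p = 0.0570) and with 75th percentile centring (limma adjusted p = 0.0970). Arrays of transcripts give no measure of the proteins' amounts.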

How the data were processed

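The members and the gene lists were chosen with earlier results of these data known. Total RNA of 20 embryos per sample was labelled with biotin by an Affymetrix small sample assay, per the labels' protocols. The authors deposited intensities on a linear scale (MAS5, per the submitters' processing notes, no version given). All 8 arrays shared a 2% trimmed mean of 150, and they were not scaled again. Before log2, any signal under 1 was raised to 1. After 64 controls were set aside, the upper 50% of probe sets by mean log2 signal were tested with limma 3.58.1 (R 4.3.3), as a two-sided moderated test whose variance follows intensity, tested on simulated data first.

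Symbols came from the platform annotation, where 34945 probe sets had 1 symbol, 932 several and 9160 none. The brightest probe set by mean log2 signal stood for its gene. The background bound of an array is the 95th percentile of 27 Bacillus control probe sets, chosen after the data were seen. Gene order and promoters came from RefSeq (GRCm38.p6), with a promoter for 49 of 67 members, aligned with Biopython 1.88. Values per sample are given for called members, the 6 brightest, the 6 with the smallest adjusted p that did not pass, Fbxw12 to Fbxw28, and Fbxo5, Fbxo43, Fbxw7, Fbxw11, Fbxo11, Fbxl5, Fbxl20, Fbxo15, Fbxo30, Fbxo34 and Fbxo6, with Skp1, Cul1, Rbx1, Cand1, Skp2, Ccnf and Btrc. Alternatives were quantile normalization, 75th percentile centring, other filters, a higher pseudocount, no intensity trend, a replicate block, other probe sets and samples left out.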

Additional observations from a re-analysis of the deposited data

Results flagged for a closer look

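In 3 groups of 4 samples 1 sample stood far from the other 3, out of 66 groups looked at, of which chance gives about 1 in 20. Fbxo10 read 124 in mutant replicate 4, against 212.9 to 234.5 in the other mutants. Fbxo15 read 5124 in mutant replicate 1, against 1884 to 2137 in the other mutants. Fbxo8 read 1525 in wild type replicate 2, against 2606 to 2719 in the other wild type samples.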

How the results depend on the processing

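Array-wide, 1478 probe sets were called, against 15 with a replicate block, 9358 without mutant replicates 1 and 2, and 73 to 2926 when 1 sample was left out. The replicate block called 0 members, other F-box genes and substrates (limma adjusted p = 0.0693 for Fbxo10, 0.0734 for Fbxw13, 0.125 for Fbxw24). Deviations from the group means of same-numbered mutant and wild type samples correlated at 0.02, -0.18, -0.13 and -0.09 for replicates 1 to 4. The numbers were not taken as pairs. These correlations cannot settle pairing, since mutant deviations also hold the gap between replicates 1 and 2 and replicates 3 and 4. Members higher numbered 3, against 9 without mutant replicates 1 and 2 and 0 to 5 with 1 sample left out. Members lower numbered 0, against 1 with 75th percentile centring, 1 without mutant replicates 3 and 4, 15 without mutant replicates 1 and 2 and 0 to 3 with 1 sample left out. Substrates called numbered 1, against 0 with 75th percentile centring, no filter or no intensity trend, 2 over the upper 30% of probe sets or without mutant replicates 3 and 4, 20 without mutant replicates 1 and 2, and 0 to 8 with 1 sample left out. Other F-box genes called numbered 1, against 0 with quantile normalization, no filter, no intensity trend or without mutant replicates 3 and 4, 4 without mutant replicates 1 and 2, and 0 to 3 with 1 sample left out. SCF partners called numbered 0, against 1 over the upper 30% or without mutant replicates 3 and 4, 18 without mutant replicates 1 and 2, and 0 to 2 with 1 sample left out. Median log2 changes were 0.04 for members and -0.05 for all tested genes, against -0.10 and -0.19 with 75th percentile centring and -0.01 and -0.13 with quantile normalization.

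Signs turned for genes that were not called over all 8 samples, and the cause was not tested. With quantile normalization log2 changes were -0.17 for Btrc, -0.18 for Cul1, -0.12 for Fbxw11, 0.063 for Fbxw19 and 0.037 for Fbxw21. With 75th percentile centring they were -0.12 for Btrc, -0.074 for Cul1, -0.10 for Fbxl5 and -0.011 for Fbxw11. Second probe sets gave 0.49 for Cand1, -1.37e-04 for Skp1 and -0.086 for Fbxw11, the last also without _x_at probe sets. Without mutant replicates 3 and 4 changes were -0.32 for Btrc, 0.18 for Cand1, 0.52 for Fbxl20, 0.10 for Fbxo15, 0.0059 for Fbxo34, 0.021 for Fbxw14, 0.46 for Fbxw19, 0.083 for Fbxw21 and 0.61 for Fbxw4. Without mutant replicates 1 and 2 they were -0.39 for Cul1, -0.45 for Fbxl5, -0.37 for Fbxw11 and -0.43 for Fbxw16. With 1 sample left out signs also turned, over ranges of -0.22 to 0.33 for Btrc, -0.15 to 0.26 for Cul1, -0.38 to 0.13 for Fbxl20, -0.18 to 0.22 for Fbxl5, -0.064 to 0.32 for Fbxw11, -0.080 to 0.44 for Fbxw16, -0.20 to 0.20 for Fbxw19, -0.19 to 0.073 for Fbxw21 and -0.45 to 0.15 for Fbxw4. Dim probe sets are limited by signal over background, which was under the bound for Fbxo43 in every mutant.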
